A study of Mus musculus with 6 samples.

Results

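The genes of DNA replication are the set described here, as read in induced pluripotent stem (iPS) cells of the mouse. The 50 members were taken from a given list of origin licensing, helicase, polymerase, clamp, nucleotide supply and chromatin assembly genes, and all 50 were among the 19938 genes measured. Each member is represented by the probeset with 1 gene symbol that had the highest mean over the 6 arrays. The shECAD clones 4, 8 and 9 were derived from OG2 embryonic fibroblasts that received retroviruses for Sox2, Klf4, Oct4 and c-Myc with an shRNA against E-cadherin. The control clones 2, 3 and 4 came from the same fibroblasts and the same 4 factors with an shRNA against luciferase, which has no target in the mouse. All 6 lines were kept on feeder cells in mouse embryonic stem cell medium, the feeders were removed before RNA extraction, and each line is 1 clone grown from 1 colony and measured on 1 whole-transcript array. Separate infections are not stated for the clones. The limma p-values therefore rest on clone-to-clone spread, with each gene's variance drawn toward a value shared by all genes (variance moderation). The n = 3 per group limits the precision.

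Replication starts in G1, when the origin recognition complex, Cdc6 and Cdt1 load the MCM2-7 helicase on DNA, a step called licensing. In S phase Cdc45 and the GINS complex join MCM2-7 to form the active helicase, primase and DNA polymerase alpha lay down primers, and polymerases epsilon and delta copy the leading and lagging strands on the PCNA clamp. Many of these genes are transcribed at the G1/S transition under E2F transcription factors. Mouse pluripotent cells are known for a short G1 phase and a large share of cells in S phase.

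The promoters of several members carry E2F-like sequences, shown here because the members are known for this shared control. RefSeq promoter windows (build GRCm38.p6, 250 bases before to 50 bases from the annotated start, which is position 1) were found for 41 of the 50 members. The E2F-like words searched, on both strands, were TTTCCCGC, TTTGGCGC, TTTCGCGC and TTTGCCGC. At least 1 of them stood in the windows of 16 of the 41 members (39.0%), against 704 of all 27025 genes with a window (2.6%). The shorter word CCAAT, also searched on both strands and contained in none of these words, stood in the windows of 26 members (63.4%), against 41.1% of all genes. Both shares count a gene once if any of its annotated starts has a match. A match is a run of letters and does not show that a factor binds there.

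The first 3 stretches come from members that were lower in the shECAD clones and hold 1 E2F-like word each just after the start. The next 2 come from subunits of the MCM2-7 ring, where the words lie upstream and partly overlap each other. The last comes from Mcm10, which was lower in the shECAD clones and had no E2F-like word but had CCAAT near both ends of the stretch. Each is written 5′ to 3′ along the gene's strand, with E2F-like words in capitals in the first 5 stretches and CCAAT in capitals in the last. The Mcm6 stretch also holds CCAAT on its other strand, at positions -57 to -53, left in lower case.
Pole2 (chr12:69228161-69228190, minus strand): gtcggcggtgGCGCCAAAtcgcgaacatgg
Mcm8 (chr2:132816161-132816190, plus strand): gcagaagcgcgtcatagacGCGCCAAAaaa
Pold1 (chr7:44548766-44548795, minus strand): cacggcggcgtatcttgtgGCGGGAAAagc
Mcm6 (chr1:128359731-128359830, minus strand): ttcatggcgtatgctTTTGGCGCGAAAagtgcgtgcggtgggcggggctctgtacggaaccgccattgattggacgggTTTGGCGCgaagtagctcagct
Mcm5 (chr8:75109334-75109393, plus strand): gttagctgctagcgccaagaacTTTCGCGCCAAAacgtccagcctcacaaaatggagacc
Mcm10 (chr2:5012807-5012906, minus strand): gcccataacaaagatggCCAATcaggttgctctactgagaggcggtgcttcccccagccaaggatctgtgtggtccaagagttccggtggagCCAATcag

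The arrays had close but unequal spreads. The SD over all probesets was 2.17, 2.20 and 2.11 on the arrays of shECAD clones 4, 8 and 9, and 2.18, 2.26 and 2.21 on those of control clones 2, 3 and 4. The target of the shRNA, Cdh1 (E-cadherin), read 6.75, 6.92 and 7.81 in shECAD clones 4, 8 and 9, against 9.18, 9.61 and 9.07 in control clones 2, 3 and 4. It was lower in every shECAD clone, with a log2 fold change of -2.13 ± 0.27 (SE) and a limma adjusted p of 0.00683, and a two-sided exact permutation test gave p = 0.1, the smallest that 3 clones against 3 allow. The pluripotency gene Pou5f1 read 10.77, 10.73 and 10.28 in shECAD clones 4, 8 and 9 and 10.70, 10.72 and 10.50 in control clones 2, 3 and 4, all above the 75th percentile of every array (at most 7.01). Pou5f1 encodes Oct4, which was also given by retrovirus, and any viral transcript in its values was not tested. The same holds for Sox2 and Klf4, which are with Pou5f1 in the pluripotency list below.

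The DNA replication genes had lower values in the shECAD clones throughout the list. The log2 fold change, shECAD minus control, was below 0 for all 50 members, against 46.3% of all genes. Its median was -0.38, with a range from -1.004 (Pole2) to -0.12 (Tipin), while the median over all genes was 0.03. At a limma adjusted p below 0.05 over all genes, 6 members fell and 0 rose, or 6 of 50 against 1.23% of all genes called lower and 1.9% called higher. The 6 were Pole2, Mcm8, Pold1, Dna2, Prim1 and Mcm10. At an unadjusted p below 0.05, 24 members were lower and 0 higher, against 9.07% of all genes lower. In 33 of 50 members each shECAD clone was below each control clone, against 12.5% of all genes. In bulk RNA, fewer cells in S phase or fewer cycling cells and less RNA per cell cannot be told apart.

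**Figure D1:**
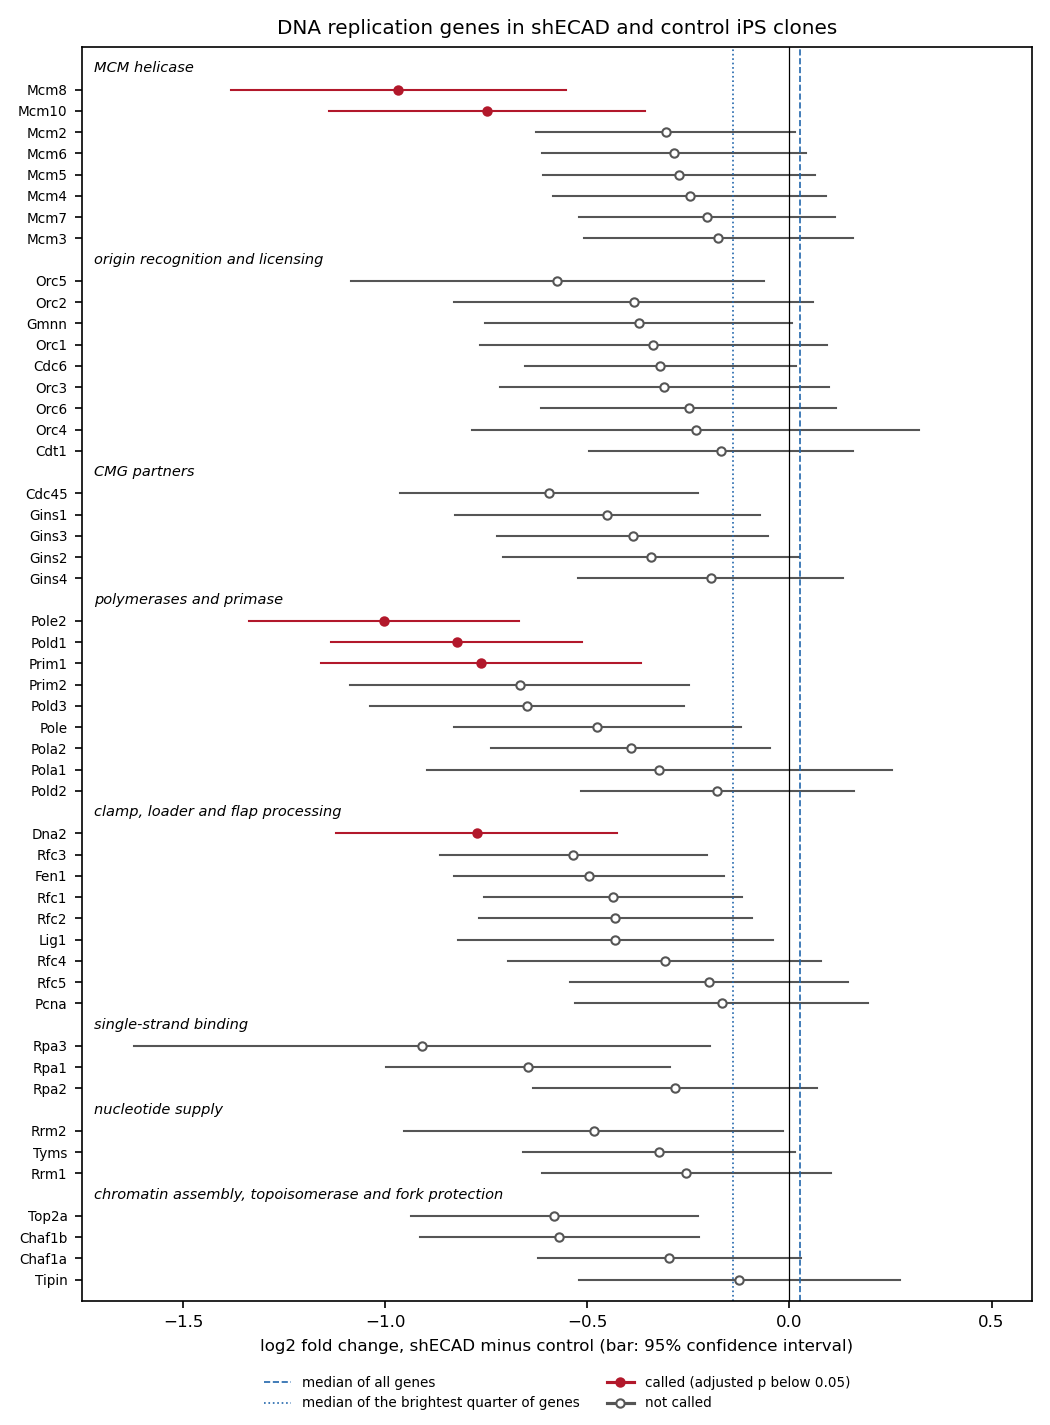
Log2 fold change (shECAD minus control) of the 50 DNA replication genes by role, with 95% confidence intervals from the limma fit (n = 3 clones per group). Filled red points are the 6 called members. All points lie left of 0, and the dashed and dotted lines mark the medians of all genes (0.03) and of the brightest 25% of genes (-0.14).

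The level of the members bears on this comparison, because bright genes as a whole were lower on the shECAD arrays. Of the 50 members, 46 lay in the brightest 25% of all genes (mean log2 level above 6.95), and Mcm8, Gmnn, Gins3 and Rpa3 lay in the 25% below it. Over the 4985 genes in this brightest class the median log2 fold change was -0.14, and 69.5% of them were below 0. Among these genes 2.21% were called lower, against 5 of the 46 members there. The groups did not overlap, with shECAD lower, in 25.6% of these genes, against 30 of the 46 members. After quantile normalization, which gives all arrays the same distribution, the median of the members was -0.27 and that of all genes -0.009. All 50 members were still below 0 there, 25 did not overlap (12.0% of all genes) and 4 were called lower (0.998% of all genes): Pole2, Mcm8, Pold1 and Dna2. With the median of every array set to the same value, 7 members were called lower (1.92% of all genes), and the calls over all genes were split into 383 lower and 298 higher, against 245 lower and 378 higher for the values as deposited.

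**Figure D2:**
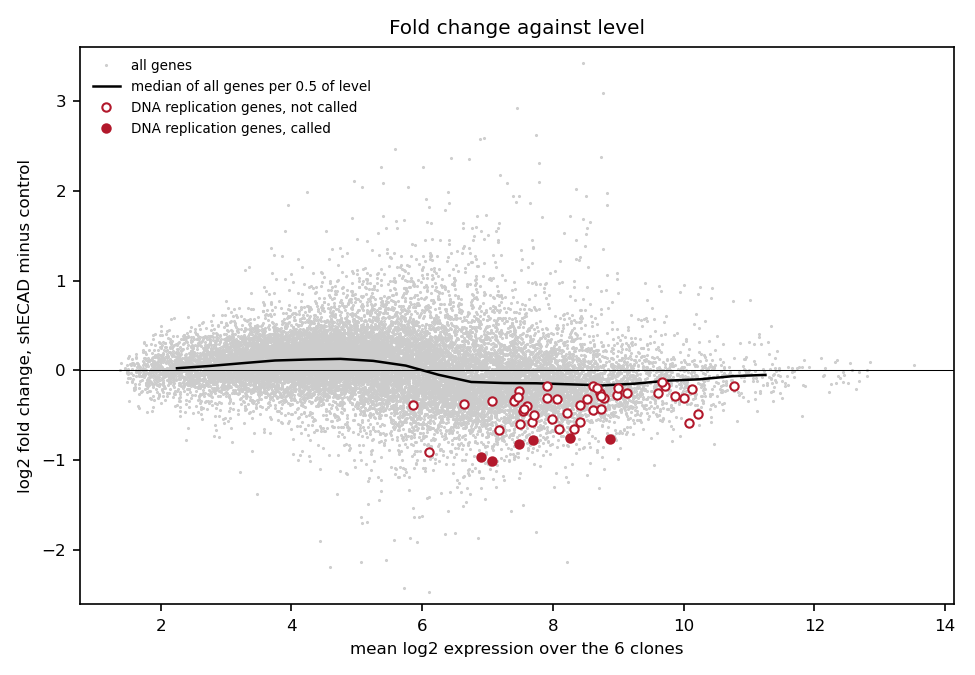
Log2 fold change (shECAD minus control, vertical axis) against the mean log2 expression over the 6 clones (horizontal axis) for 19938 genes (grey) and the 50 DNA replication genes (red, filled where called). The black line is the median of all genes in steps of level, and the replication genes lie below 0, most of them below that line.

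The number of calls depended on single clones. With shECAD clone 4, 8 or 9 omitted it was 1, 1 and 2, while 0.371%, 0.381% and 0.426% of all genes were called lower. With control clone 2, 3 or 4 omitted it was 4, 2 and 1, while 0.828%, 0.441% and 0.246% of all genes were. Calls over the whole array thus dropped in these fits as well. The median log2 fold change of the members was between -0.45 and -0.34 in them. When only the brighter 9969 genes were tested, 12 members were called lower (4.03% of those genes), and with an intensity trend and a robust prior 11 were (1.88% of all genes).

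The polymerases and primase held 3 of the 6 calls, and their log2 fold changes had a median of -0.65. Pole2, the second subunit of the leading-strand polymerase epsilon, read 6.57, 6.70 and 6.41 in shECAD clones 4, 8 and 9, against 7.60, 7.60 and 7.49 in control clones 2, 3 and 4. Every shECAD clone lay well below every control clone. Its group means were 6.56 ± 0.15 and 7.56 ± 0.07 (SD, n = 3 each) in shECAD and control, a log2 fold change of -1.004 ± 0.15 (SE) with a limma adjusted p of 0.012, or 0.499 of the control level. Pole2 was the only member that kept its call whichever clone was omitted, with limma adjusted p at most 0.043.

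Pold1, the catalytic subunit of the lagging-strand polymerase delta, read 7.06, 7.03 and 7.10 in shECAD clones 4, 8 and 9, against 7.89, 7.88 and 7.89 in control clones 2, 3 and 4. Both groups were tight and far apart, and this was the only member called without variance moderation. Its log2 fold change was -0.82 ± 0.14 (SE, limma adjusted p = 0.0169). The call was lost without shECAD clone 4 (adjusted p = 0.0561), shECAD clone 8 (0.0641) or control clone 4 (0.0739), where the fold change was between -0.82 and -0.81. Prim1, the catalytic primase subunit, read 8.63, 8.68 and 8.17 in shECAD clones 4, 8 and 9, against 9.13, 9.40 and 9.25 in control clones 2, 3 and 4. Clone 9 was the lowest, and clones 4 and 8 also lay below all controls. Its log2 fold change was -0.76 ± 0.18 (SE, limma adjusted p = 0.0491), and the call was lost without any 1 clone (adjusted p up to 0.153, without control clone 4) and after quantile normalization (0.0532).

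The partners of these 3 subunits were also below the control level without passing the test. Prim2, the regulatory primase subunit, had a log2 fold change of -0.67, and Pold3, an accessory subunit of polymerase delta, one of -0.65 (limma adjusted p = 0.0895 and 0.0783). Pole, the catalytic subunit of polymerase epsilon, had one of -0.48 (adjusted p = 0.146). In all 3 genes each shECAD clone was below each control clone. Pold2, another polymerase delta subunit, had a log2 fold change of -0.18 and its groups overlapped. The polymerase alpha subunits Pola1 and Pola2 had -0.32 and -0.39. Pola1 rested on 1 clone. It read 8.83, 8.56 and 7.69 in shECAD clones 4, 8 and 9, against 8.82, 8.59 and 8.63 in control clones 2, 3 and 4, and without shECAD clone 9 its log2 fold change was 0.015.

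**Figure D3:**
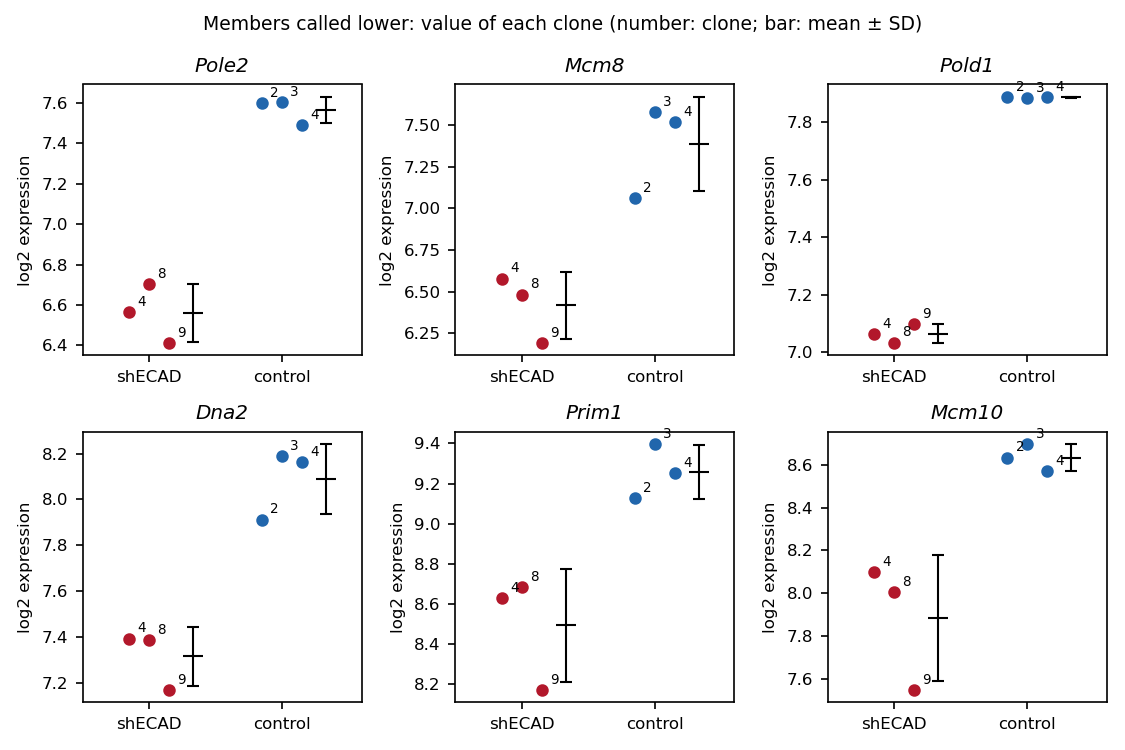
Log2 expression of the 6 called members in each clone, with shECAD left and control right. Numbers are clone numbers and bars are means ± SD (n = 3 each). In each panel every shECAD clone lies below every control clone, and clone 9 is the lowest except for Pold1.

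The MCM genes divided into the replicative ring, with small differences, and Mcm8 and Mcm10, which fell. Mcm8, a helicase of recombination and meiosis rather than of the replicative ring, read 6.58, 6.48 and 6.19 in shECAD clones 4, 8 and 9, against 7.06, 7.58 and 7.52 in control clones 2, 3 and 4. Its log2 fold change was -0.97 ± 0.19 (SE, limma adjusted p = 0.0272), or 0.511 of the control level. Mcm8 lost its call without any clone other than control clone 2, with adjusted p-values from 0.055 (without shECAD clone 4) to 0.109 (without control clone 4). Mcm10, which helps to activate the assembled helicase, read 8.10, 8.01 and 7.55 in shECAD clones 4, 8 and 9, against 8.63, 8.70 and 8.57 in control clones 2, 3 and 4. The control clones lay close together and shECAD clone 9 lay apart from the other shECAD clones. The log2 fold change was -0.75 ± 0.18 (SE, limma adjusted p = 0.0497), and it lost its call without any 1 clone (adjusted p up to 0.143, without control clone 4) and after quantile normalization (0.0608).

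The 6 genes of the MCM2-7 ring had log2 fold changes from -0.31 (Mcm2) to -0.18 (Mcm3), with a median of -0.26, and 0 passed the limma test, also at an unadjusted p below 0.05. Without variance moderation 4 of the 6 were lower at an unadjusted p below 0.05, against 7.99% of all genes. Mcm2 read 9.80, 9.85 and 9.91 in shECAD clones 4, 8 and 9, against 10.26, 10.11 and 10.10 in control clones 2, 3 and 4. Mcm2, Mcm4, Mcm5, Mcm6 and Mcm7 were lower in each shECAD clone than in each control clone, and Mcm3 overlapped. The 95% confidence interval of Mcm2 ran from -0.63 to 0.01 and that of Mcm7 from -0.52 to 0.11, so the failed test does not show that these genes were alike in both groups.

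Among the origin recognition and licensing genes, 0 of 9 passed the limma test, and the median log2 fold change was -0.32. At an unadjusted p below 0.05, 1 of the 9 was lower, close to the share of all genes (9.07%). Orc5, a subunit of the origin recognition complex, read 7.71, 7.51 and 6.96 in shECAD clones 4, 8 and 9, against 7.58, 8.17 and 8.15 in control clones 2, 3 and 4. The groups overlapped through shECAD clone 4 and control clone 2, and the log2 fold change was -0.57 ± 0.23 (SE, limma adjusted p = 0.222). Orc2 read 8.45, 8.44 and 7.77 in shECAD clones 4, 8 and 9, against 8.47, 8.67 and 8.67 in control clones 2, 3 and 4. Its shECAD clones 4 and 8 lay just under the lowest control, and clone 9 well below. The other Orc genes had log2 fold changes from -0.34 (Orc1) to -0.23 (Orc4), with overlapping groups. The loading factor Cdc6 had -0.32, Cdt1 had -0.17, and geminin (Gmnn), the inhibitor that binds Cdt1, had -0.37 (limma adjusted p = 0.303, 0.596 and 0.287).

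Cdc45 and the GINS genes, whose products complete the active helicase, showed log2 fold changes with a median of -0.39. By limma 0 of 5 passed the test, and 3 were lower at an unadjusted p below 0.05, against 9.07% of all genes. Cdc45 came nearest, with 7.37, 7.29 and 6.93 in shECAD clones 4, 8 and 9, against 7.82, 7.87 and 7.70 in control clones 2, 3 and 4. Every shECAD clone was lower, and the log2 fold change was -0.59 ± 0.17 (SE, limma adjusted p = 0.0853). Gins1 read 7.41, 7.42 and 7.12 in shECAD clones 4, 8 and 9, against 7.53, 7.88 and 7.90 in control clones 2, 3 and 4 (log2 fold change -0.45, limma adjusted p = 0.195). Gins3, Gins2 and Gins4 had log2 fold changes of -0.39, -0.34 and -0.19.

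Of the clamp, clamp loader and flap processing genes, 1 of 9 fell, against 1.23% of all genes called lower. Dna2, a nuclease and helicase that trims long flaps of Okazaki fragments, read 7.39, 7.39 and 7.17 in shECAD clones 4, 8 and 9, against 7.91, 8.19 and 8.16 in control clones 2, 3 and 4. The groups did not overlap, and the log2 fold change was -0.77 ± 0.16 (SE, limma adjusted p = 0.0308). Dna2 lost its call without any clone other than control clone 2, with adjusted p-values from 0.0744 (without shECAD clone 4) to 0.129 (without control clone 4). Rfc3, a subunit of the clamp loader, read 7.75, 7.82 and 7.57 in shECAD clones 4, 8 and 9, against 8.17, 8.28 and 8.29 in control clones 2, 3 and 4 (log2 fold change -0.54, limma adjusted p = 0.0847). The loader subunits Rfc1 and Rfc2 had -0.44 and -0.43 with groups that did not overlap, and Rfc4 and Rfc5 had -0.31 and -0.20 with groups that did. The flap endonuclease gene Fen1 had -0.50 and the DNA ligase gene Lig1 -0.43 (limma adjusted p = 0.11 and 0.23). Pcna, the clamp itself, had a log2 fold change of -0.17, with 10.69, 10.88 and 10.48 in shECAD clones 4, 8 and 9, against 10.70, 10.96 and 10.89 in control clones 2, 3 and 4. A second Pcna probeset differed by -0.32.

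Replication protein A, which coats single-stranded DNA, gave 0 limma calls among its 3 subunit genes. Of these, 2 were lower at an unadjusted p below 0.05, against 9.07% of all genes. Rpa1, the large subunit gene, read 7.90, 8.22 and 7.88 in shECAD clones 4, 8 and 9, against 8.57, 8.75 and 8.63 in control clones 2, 3 and 4. Every shECAD clone was lower, with a log2 fold change of -0.65 ± 0.16 (SE, limma adjusted p = 0.058). Rpa3 read 5.85, 6.06 and 5.01 in shECAD clones 4, 8 and 9, against 5.92, 7.09 and 6.65 in control clones 2, 3 and 4. The clones scattered widely in both groups, and its log2 fold change of -0.91 ± 0.32 (SE) did not pass (limma adjusted p = 0.165). The second Rpa3 probeset was tighter and differed by -0.27, so that the 2 probesets of this gene disagree in size. Rpa2 had a log2 fold change of -0.28.

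The 3 nucleotide supply genes gave 0 limma calls, and 1 was lower at an unadjusted p below 0.05, against 9.07% of all genes. Rrm2, the small subunit gene of ribonucleotide reductase, read 10.29, 10.02 and 9.63 in shECAD clones 4, 8 and 9, against 10.74, 10.15 and 10.51 in control clones 2, 3 and 4. The groups overlapped through shECAD clone 4 and control clone 3, and the log2 fold change was -0.48 (limma adjusted p = 0.261). Tyms, the thymidylate synthase gene, read 7.82, 7.84 and 8.07 in shECAD clones 4, 8 and 9, against 8.13, 8.32 and 8.23 in control clones 2, 3 and 4 (log2 fold change -0.32, limma adjusted p = 0.301). Here clone 9 was the highest of the shECAD clones. Rrm1, the large reductase subunit gene, had a log2 fold change of -0.26.

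The 4 genes of chromatin assembly, topoisomerase and fork protection gave 0 limma calls. Of these, 2 were lower at an unadjusted p below 0.05, against 9.07% of all genes. Top2a, the topoisomerase that separates replicated DNA, read 9.92, 9.85 and 9.58 in shECAD clones 4, 8 and 9, against 10.23, 10.46 and 10.42 in control clones 2, 3 and 4 (log2 fold change -0.58, limma adjusted p = 0.0831). Chaf1b, a subunit of the factor that places histones on new DNA, read 8.09, 8.17 and 8.11 in shECAD clones 4, 8 and 9, against 8.48, 8.84 and 8.77 in control clones 2, 3 and 4 (log2 fold change -0.57, limma adjusted p = 0.0817). In both genes every shECAD clone was below every control clone. The Chaf1b partner Chaf1a had -0.30, and the fork protection gene Tipin had -0.12, the smallest difference of the list, with overlapping groups.

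The E2F-like words printed above did not mark the members with larger differences. The median log2 fold change was -0.33, with 3 calls, over the 16 members with a word, and -0.39, with 3 calls, over the 25 members with a window and no word. These values are a description with no test.

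Each shECAD clone was set against the control mean, to place the replication genes beside the pluripotency genes, which were low in clone 9. The median deviation of the 50 replication genes was -0.37 in shECAD clone 4, -0.32 in clone 8 and -0.57 in clone 9. In control clones 2, 3 and 4 it was -0.11, 0.07 and 0.03. The values of 48, 48 and 50 members lay below the control mean in shECAD clones 4, 8 and 9. Thus the replication genes were low in each of the 3 clones, and lowest in clone 9. The 29 measured pluripotency genes had median deviations of -0.19, -0.19 and -0.85 in shECAD clones 4, 8 and 9, and of 0.06, -0.10 and 0.17 in control clones 2, 3 and 4. By these medians, their lower level lay mostly in clone 9. Clone 9 is 1 sample, so that its distance from the other clones has no test.

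Clone 9 was the lowest of the 6 clones in 37 of 50 replication genes, against 21.7% of all genes and 44.8% of the brightest 25% of genes. The lowest clone was shECAD clone 4 in 11 members and shECAD clone 8 in 2, and in 0 members was a control clone the lowest. Control clone 3 was the highest in 30 members. Clone 9 lay below the mean of shECAD clones 4 and 8 by a median of -0.22 in the replication genes and -0.66 in the pluripotency genes. In the brightest 25% of all genes this median was -0.14. For the G1/S regulators, mitosis genes and auxiliary replication factors described below, it was -0.24, -0.18 and -0.11. The array of clone 9 also had the narrowest spread of values and that of control clone 3 the widest, and after quantile normalization the replication genes deviated by -0.29, -0.30 and -0.38 in shECAD clones 4, 8 and 9. Without clone 9, the median log2 fold change was -0.34 for the replication genes and -0.15 for the pluripotency genes, against -0.38 and -0.42 with it. Without clone 9 the replication calls were Pole2 and Pold1. In the pluripotency list 10 of 29 members were lower and 0 higher at an unadjusted p below 0.05, against 9.07% of all genes lower. Without clone 9, 8 were lower, against 6.77% of all genes. In 8 of the 29, each shECAD clone was below each control clone, against 12.5% of all genes and 25.6% of the brightest 25%. By the adjusted p 1 fell, against 1.23% of all genes. It was the DNA demethylation enzyme gene Tet1 (log2 fold change -0.79, limma adjusted p = 0.0462). Tet1 lost this call without any 1 clone (adjusted p up to 0.162, without control clone 4).

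Further genes of replication that are not in the list lay low as well. Of 36 measured auxiliary factors, 1 fell and 0 rose by limma, close to the 1.23% of all genes called lower. At an unadjusted p below 0.05, 15 were lower and 0 higher, against 9.07% of all genes lower. In 33 the log2 fold change was below 0, against 46.3% of all genes and 69.5% of the brightest 25%. The median was -0.36. The member that fell was Uhrf1, which brings the maintenance DNA methyltransferase to newly copied DNA. It read 8.24, 8.32 and 8.47 in shECAD clones 4, 8 and 9, against 9.25, 9.05 and 9.29 in control clones 2, 3 and 4, a log2 fold change of -0.85 ± 0.15 (SE, limma adjusted p = 0.0201). Here clone 9 was the highest of the shECAD clones, and the call was lost without shECAD clone 4 (adjusted p = 0.0701), shECAD clone 8 (0.0697) or control clone 4 (0.0931). The count was 4 after median centring (1.92% of all genes called lower) and 5 when only the brighter genes were tested (4.03% of those). The auxiliary genes deviated from the control mean by medians of -0.34, -0.23 and -0.51 in shECAD clones 4, 8 and 9.

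The regulators of the G1/S transition did not share this shift as a list, and single genes went both ways. The list mixes genes that promote the transition, such as Ccnd1 and Cdk2, with inhibitor genes such as Cdkn2a and Cdkn2b. Its median therefore has no single reading. Of 30 measured genes, 15 had a log2 fold change below 0, against 46.3% of all genes and 69.5% of the brightest 25%. The median was -0.009 (0.038 after quantile normalization). By limma 1 rose and 1 fell, against 1.9% and 1.23% of all genes. At an unadjusted p below 0.05, 3 were lower, against 9.07% of all genes: E2f1 (log2 fold change -0.39), Rbl1 (-0.66) and Cdk2. There 4 were higher, against 1786 of all 19938 genes: Ccnd1 (0.57), Ccnd2, Cdkn2a (0.60) and Cdkn2b (0.55). Ccnd2, the gene of cyclin D2, rose, with 9.52, 9.46 and 9.20 in shECAD clones 4, 8 and 9, against 8.43, 7.61 and 7.19 in control clones 2, 3 and 4 (log2 fold change 1.65 ± 0.27 SE, limma adjusted p = 0.0148). Cdk2, the kinase that fires licensed origins with cyclins E and A, fell, with 8.72, 8.74 and 8.37 in shECAD clones 4, 8 and 9, against 9.18, 9.38 and 9.37 in control clones 2, 3 and 4 (log2 fold change -0.70 ± 0.16 SE, limma adjusted p = 0.0491). Ccnd2 lost its call without shECAD clone 4 or 8 (adjusted p = 0.0516 and 0.0616), and Cdk2 without any 1 clone (up to 0.169, without control clone 4) and after quantile normalization (0.056). The difference between this list and the replication genes was not tested.

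The mitosis genes were mostly below the control level. Of 27 measured genes, 26 had a log2 fold change below 0, against 46.3% of all genes and 69.5% of the brightest 25%. The median was -0.34, and 0 were called by limma, against 1.23% of all genes called lower. At an unadjusted p below 0.05, 10 were lower, against 9.07% of all genes. That count of 10 became 15 after median centring and 3 after quantile normalization, against 13.5% and 8.93% of all genes. It was 5, 12 and 6 without shECAD clones 4, 8 and 9, and 10, 3 and 4 without control clones 2, 3 and 4. The shares of all genes in these fits were 7.73%, 9.29%, 6.77%, 8.97%, 6.39% and 6.79%. The largest differences were those of the kinetochore gene Nuf2 (-0.51), the checkpoint kinase gene Bub1 (-0.49) and the cytokinesis motor gene Kif23 (-0.45), with limma adjusted p-values of 0.136, 0.119 and 0.178.

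Most markers of fibroblasts, the cell type of the feeders and of the starting cells, were higher in the shECAD clones beside the lower replication genes. Of 22 measured fibroblast and feeder genes, 14 rose and 0 fell, against 1.9% of all genes called higher and 1.23% called lower. At an unadjusted p below 0.05, 19 were higher and 0 lower, against 1786 of all 19938 genes higher. The median log2 fold change of the list was 1.05. Among the 14 that rose were the collagen cross-linking enzyme gene Lox (2.35), the periostin gene Postn (2.26) and Ccdc80 (2.05). The collagen gene Col1a1 (1.97) and the cadherin gene Cdh11 (1.94) rose as well. Lum (-0.23), Dcn (0.48), Pdgfra (0.38) and Col3a1 (0.82) were not called, and their groups overlapped. Leaving out shECAD clone 8 ended the calls of Col1a1 and Cdh11 (limma adjusted p = 0.0661 and 0.0527), and no other single clone did. The summed level of the list on the linear scale was 8837, 9722 and 8448 in shECAD clones 4, 8 and 9, and 6045, 4055 and 3356 in control clones 2, 3 and 4. No marker reads 0 on the log2 scale. There the lowest were Lum in the shECAD clones (4.26, 5.14 and 4.79), and Postn (4.54) in control clone 2 and Ccdc80 (4.00 and 3.59) in control clones 3 and 4.

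As the mean log2 level of the list, the fibroblast genes read 7.53, 7.83 and 7.57 in shECAD clones 4, 8 and 9 and 6.93, 6.46 and 5.87 in control clones 2, 3 and 4. The replication genes read 8.12, 8.18 and 7.91 in the same shECAD clones and 8.41, 8.58 and 8.52 in the same control clones. Among the controls, clone 2 had the highest fibroblast and the lowest replication level, and clone 4 had the lowest fibroblast level and the middle replication level. Among the shECAD clones, clone 8 had the highest level of both lists. With 3 clones per group, no relation between the lists was tested. The part of fibroblast RNA in the lower replication values was not tested.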

How the data were processed

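Total RNA of 6 mouse iPS clones was measured on 1 whole-transcript array each. The authors deposited log2 expression values per probeset. The submitters' processing notes name RMA and Partek, without versions or settings, and the array's genome build is not given in the sources used here. Of 28853 probesets, 21789 have 1 gene symbol in the platform annotation, and the brightest per gene gave 19938 genes. Symbols were checked against RefSeq by Entrez identifier, with 0 changes. The 3 shECAD and 3 control clones were compared with limma 3.58.1 in R 4.3.3 (lmFit, eBayes, no covariate, no filter on dim probesets), with Benjamini-Hochberg adjustment over all genes and a call at 0.05. The fit was tested on simulated data. Promoter sequences are RefSeq's (GRCm38.p6), used with no link to the array's build. Alternatives were median centring, quantile normalization, brighter genes only, probeset means, a trended robust prior, no moderation, array weights, a threshold of 0.1 and leaving out each clone. Quantile normalization without shECAD clone 9, and the recount of genes whose groups do not overlap, were added later.

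The members and gene lists were chosen with earlier results of these data known. Named with all clones' values are the called members and, in each role group, the 2 with the largest change. Lists name up to 5 called genes, or else the 3 largest changes. Values of Mcm2, Pcna, Pola1 and Pou5f1 were added after they were seen. Figures were drawn with matplotlib 3.10.9.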

Additional observations from a re-analysis of the deposited data

How the results depend on the processing

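No paired analysis was possible because the groups share only the number 4, which names different clones. The 50 members, each refitted under 14 alternatives, gave 700 fits, of which 645 kept direction and side of the threshold, 36 lost a call, 15 gained one and 4 turned. The sign turned for Pola1 without shECAD clone 9 (-0.559 to 0.015 over the clones left out) and, with quantile normalization as well, for Pola1 (0.103), Orc4 (0.036) and Tipin (0.02). The 6 calls became 12 among brighter genes, 11 with a trended robust prior, 1 without moderation, 13 at an adjusted p of 0.1, 1 to 4 with a clone left out, and 2 with quantile normalization and clone 9 left out. Over all genes, 623 calls became 3 without moderation (2972 had an unadjusted p below 0.05 there), 1067 with array weights, 1278 at 0.1, 271 with quantile normalization and clone 9 left out, and 146 to 543 with a clone left out. Without moderation Cdh1 kept its -2.13 (adjusted p = 0.194).

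The auxiliary list's 1 call became 4 after median centring, with a trended prior and with array weights, 5 among brighter genes, 0 without moderation, 8 at 0.1 and 0 to 2 with a clone left out. The G1/S list's 2 calls became 1 after quantile normalization (with or without clone 9), 4 among brighter genes, with array weights and at 0.1, 0 without moderation and 0 to 2 with a clone left out. The mitosis list's 0 calls became 1 with a trended prior. The pluripotency list's 1 call became 0 after quantile normalization (with or without clone 9) and without moderation, 3 with a trended prior and at 0.1, 2 with array weights, and 0 with any clone left out. The fibroblast list's 14 calls became 0 without moderation (15 at an unadjusted p below 0.05), 4 to 16 with a clone left out and 6 with quantile normalization and clone 9 left out. Median log2 fold changes moved to -0.235 (auxiliary), -0.206 (mitosis) and -0.102 (pluripotency) under quantile normalization without clone 9, to -0.219 for mitosis under quantile normalization alone, and to -0.099 for the G1/S list after centring (-0.103 to 0.017 with a clone left out). The deviation of the replication genes in shECAD clone 9 was -0.707 after centring and -0.38 after quantile normalization. The causes of these changes were not tested.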
